A study of Mus musculus with 4 samples.

Results

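Plasmacytoid dendritic cells (pDCs) were examined in single-cell RNA profiles of mouse bone marrow, as 205 of 37717 kept cells (0.544%). A cell was taken as a pDC when it had at least 1 UMI (a unique molecular identifier, 1 counted RNA molecule) of Siglech, at least 1 UMI of any of the 4 genes Ccr9, Cox6a2, Klk1 and Cd300c, and none of F13a1, Ms4a1 and Elane, which mark monocytes, B cells and granule-making progenitors. The members were thus selected on the measured UMIs of these genes, and the values of the 5 pDC genes below describe the choice and test nothing. The cells came from 6 female mice, all Tppp3CreER LSLTdTomato and 6 weeks old, with 2 mice in each of 3 treatments. In the tamoxifen+rapamycin mice both drugs were given at postnatal days 0 and 3. In the late rapamycin mice rapamycin was given at postnatal day 30 without tamoxifen, so no cell of theirs was labelled. The hashing table calls the third set of mice Ctrl, and these were taken as the late rapamycin mice only because the other 2 treatments are named in it; every late rapamycin value depends on that. In the tamoxifen mice tamoxifen alone was given at postnatal days 0 and 3. Every mouse thus carried the same CreER allele, which acts where Tppp3 is transcribed, and the red reporter. Tppp3 had 0 UMIs in the 205 pDCs, which allows a share of up to 1.46% of pDCs with a UMI.

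The cells of the 3 treatments were tagged with hashtag antibodies and pooled, 1 mouse of each treatment on each of 2 processing days. The labels list lineage-negative Sca1+Kit+ cells, lineage-negative Sca1-Kit+ cells and whole bone marrow as the material, so a share of cells depends on how these were mixed. The hashing table and the sample labels number the tamoxifen and tamoxifen+rapamycin mice in opposite order. The table's hashtags were followed here; if the label numbers were hashtag numbers, the 2 treatments would be exchanged in every comparison between them. The 2 pools held 25058 and 21409 cell barcodes, of which 126 occurred in both, and none of those 126 was a pDC in either. The pDC UMIs summed to 52172 and 60690 in the tamoxifen+rapamycin mice, 102155 and 175065 in the late rapamycin mice, and 64510 and 85782 in the tamoxifen mice. At these depths 1 UMI was worth between 5.71 and 19.2 CPM (a gene's UMIs for each 1000000 UMIs summed over a mouse's pDCs).

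pDCs are dendritic cells made in the bone marrow from progenitors of both the myeloid and the lymphoid side, and they are known for releasing large amounts of type I interferon when they meet viral nucleic acid. The E-protein transcription factor TCF4 (E2-2) sets and keeps their identity, with IRF8, RUNX2, SPIB, BCL11A and ZEB2 acting beside it. Viral RNA and DNA are sensed inside endosomes by TLR7 and TLR9, which UNC93B1 carries there, and the signal runs through MYD88 and IRF7 to the interferon genes. Rapamycin inhibits the kinase mTOR, which is known to take part in both pDC development and interferon production.

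Promoters of 4 of the 5 genes that chose the cells are shown, because these genes decide which cells every later value describes; none is shown for Cox6a2. The sequences are RefSeq's for GRCm38.p6, from 250 bases before to 50 bases after the start of transcription, on the gene's own strand. Siglech encodes a sialic-acid-binding receptor of mouse pDCs (chr7:55767934-55768233, plus strand), Ccr9 a chemokine receptor for gut homing (chr9:123766961-123767260, plus strand), Klk1 a kallikrein protease (chr7:44225110-44225409, plus strand) and Cd300c a CD300-family receptor (chr11:114960458-114960757, minus strand). Cox6a2, on chromosome 7, encodes the form of a cytochrome c oxidase subunit best known in heart and skeletal muscle. Capitals mark matches to the motifs searched.
Siglech: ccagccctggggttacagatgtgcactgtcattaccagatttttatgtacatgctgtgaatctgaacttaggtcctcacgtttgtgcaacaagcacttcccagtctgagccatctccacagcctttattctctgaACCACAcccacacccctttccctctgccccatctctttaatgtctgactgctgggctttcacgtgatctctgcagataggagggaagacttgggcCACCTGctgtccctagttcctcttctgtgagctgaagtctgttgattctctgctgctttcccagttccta
Ccr9: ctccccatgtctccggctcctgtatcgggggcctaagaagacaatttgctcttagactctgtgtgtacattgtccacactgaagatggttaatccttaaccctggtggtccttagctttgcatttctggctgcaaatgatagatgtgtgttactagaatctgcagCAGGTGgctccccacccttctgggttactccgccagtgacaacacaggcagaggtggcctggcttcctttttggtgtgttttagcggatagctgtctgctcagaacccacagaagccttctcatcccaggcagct
Klk1: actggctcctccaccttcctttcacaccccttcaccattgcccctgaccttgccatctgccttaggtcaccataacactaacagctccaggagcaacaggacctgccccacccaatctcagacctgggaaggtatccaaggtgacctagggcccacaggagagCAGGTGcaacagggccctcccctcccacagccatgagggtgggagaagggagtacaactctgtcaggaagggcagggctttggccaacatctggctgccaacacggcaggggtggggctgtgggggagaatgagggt
Cd300c: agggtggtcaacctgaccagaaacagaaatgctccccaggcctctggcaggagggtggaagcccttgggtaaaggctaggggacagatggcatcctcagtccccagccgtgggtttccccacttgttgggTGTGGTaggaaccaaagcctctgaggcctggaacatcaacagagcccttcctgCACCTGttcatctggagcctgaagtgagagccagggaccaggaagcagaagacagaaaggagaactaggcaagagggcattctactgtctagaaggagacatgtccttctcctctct

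The motifs searched, on both strands, were the E-box CAGCTG, which is its own reverse complement, the E-box CACCTG, which reads as CAGGTG on the other strand, the RUNX motif TGTGGT, which reads as ACCACA there, and the ETS-IRF composite motif. E-boxes are the elements that E proteins such as TCF4 bind. The CACCTG E-box was present in the 4 promoters shown, with its first base 20 bases before the start in Siglech, 85 in Ccr9, 87 in Klk1 and 67 in Cd300c. Among all 27025 mouse promoters of this length 5413 held it, and among the 13 available promoters of the genes that led pDCs over the other cells 1 did. The RUNX motif was present in Siglech and Cd300c, in 16.9% of all promoters and in 2 of the 13. Neither CAGCTG nor the composite motif occurred in the 4 promoters; 16.1% and 2.79% of all promoters held them. A match describes letters in this window and does not show binding.

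The 5 genes of the rule marked a small set of cells. Siglech gave 886 UMIs in the pDCs, with a median of 4 and a highest value of 12 per cell, and 37 pDCs had only 1. Of the other 4 genes, Cox6a2 was seen in 167 pDCs, Ccr9 in 116, Cd300c in 82 and Klk1 in 37. A single one of these 4 was seen in 73 pDCs, and 80, 39 and 13 pDCs had 2, 3 and 4 of them. The Siglech level was 1597 ± 293 CPM in pDCs (SD over 6 mice, as throughout for levels), against a mean of 0.623 CPM in the other kept cells. The Cox6a2 level was 816 ± 164 CPM in pDCs and 3.57 CPM in the other cells.

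Siglech, the gene required of every pDC, was seen in few cells of the other classes. Cells that met the pDC rule had been taken out of these classes, so part of this absence can come from the rule. It had a UMI in 0 of 9024 cells with the stem-cell genes Hlf and Mecom, which allows a share of up to 0.0332%, and in 0 of 4187 Elane+ Mpo+ progenitors, which allows up to 0.0717%. Of 4412 neutrophils 3 had it, of 3100 B-lineage cells 2, and of 1957 Dntt+ Flt3+ progenitors, cells at the lymphoid-primed stage, 10. Inside the gate 205 cells had Siglech, and 52 kept cells outside it did. These limits cover counting error only.

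Cells just inside and just outside the rule differed in genes that the rule did not name. The Tcf4 level was 4844 CPM over the 132 pDCs with at least 2 of the 4 genes, and 4269 CPM over the 73 pDCs with 1 of them. In the 28 cells that had Siglech but none of the 4 genes the Tcf4 level was 1818 CPM, and in the 524 cells with 1 of the 4 genes and no Siglech it was 533 CPM. Irf8 followed the same order, with 2771, 2382, 779 and 173 CPM. The 18 cells left out only for a UMI of F13a1, Ms4a1 or Elane had a Tcf4 level of 4611 CPM and a Ly6d level of 2174 CPM, near the pDC levels of 4625 and 1536 CPM summed over all mice. These values are a description of the threshold and carry no test.

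**Figure D1:**
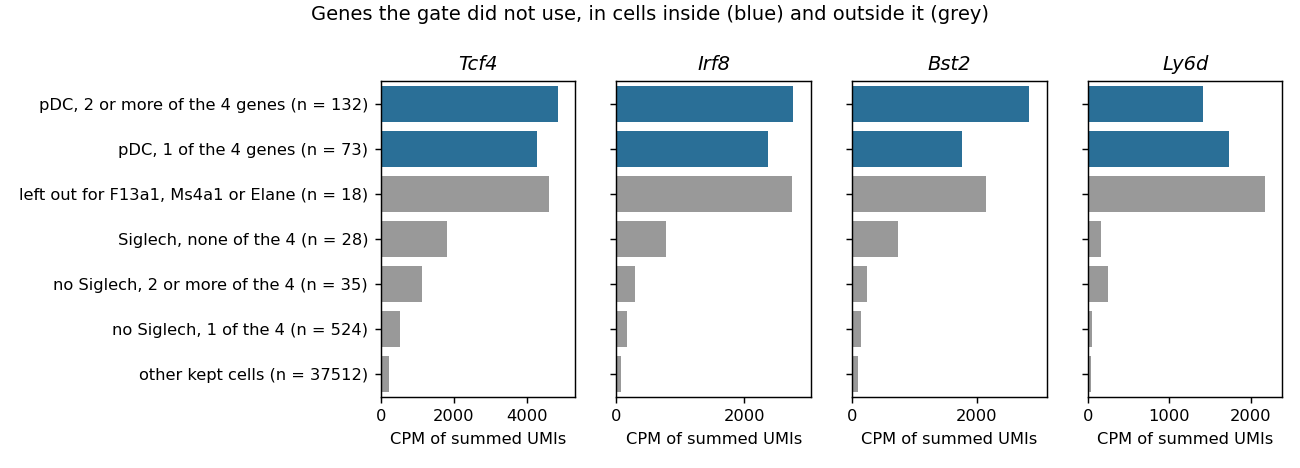
Levels of Tcf4, Irf8, Bst2 and Ly6d (CPM over the summed cells, linear axes) in pDCs (blue bars) and in groups of cells outside the rule (grey bars), with the number of cells in brackets. Tcf4 stands at 4844 and 4269 CPM in the pDC groups, 1818 CPM in cells with Siglech but none of the 4 further genes, and 215 CPM in the other kept cells, while the 18 cells left out for F13a1, Ms4a1 or Elane stand at 4611 CPM.

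The label was set beside 31 pDC markers. The 5 genes that chose the cells are among them, so their part in the count and sum below was set by the rule. Of these, 29 were higher in pDCs than in the other cells of the same mouse in all 6 mice, and their summed level was 23298 to 28293 CPM in pDCs, against 1440 to 1878 CPM in the other cells. Several defining markers of other lineages were at 0: Cd79a, Ms4a1, Pax5 and Igll1 of B cells, F13a1 and Fn1 of monocytes, Cd3e, Cd3d, Cd3g and Trac of T cells, Hba-a1, Hbb-bt and Klf1 of red cells, and Xcr1 and Batf3 of type 1 conventional dendritic cells. F13a1, Ms4a1 and Elane were at 0 by the rule. Other markers of these lineages were present. Of 9 monocyte markers 3 were higher in pDCs in all mice, Ly86, Ly6c2 and Ms4a6c, and 3 were lower, with a summed level of 1462 to 1877 CPM in pDCs and 1418 to 2495 CPM in the other cells. Of 10 B-lineage markers 1 was higher in all mice, Ighm, and 7 were lower, with sums of 744 to 1073 CPM in pDCs and 301 to 1555 CPM in the other cells. Of 7 T and NK cell markers 1 was higher in all mice, Klrd1, an NK receptor chain, at 189 ± 54.4 CPM in pDCs and 2.10 CPM in the other cells. Of the 10 conventional dendritic cell markers 6 were higher in pDCs in all mice, with a summed level of 668 to 1119 CPM in pDCs and 189 to 277 CPM in the other cells; they include Clec10a, Clec9a and Cd209a, at 130, 51.3 and 78.2 CPM in pDCs.

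Neutrophil RNA was uneven among the mice. The 8 neutrophil markers summed to 9358 CPM in the pDCs of late rapamycin mouse 1 and 7624 CPM in those of tamoxifen mouse 2, against 198 to 690 CPM in the pDCs of the other 4 mice and 17514 to 59363 CPM in the other cells. A single droplet in each of these 2 mice carried it, with 805 and 522 UMIs of S100a8, S100a9 and Ngp together, and the next highest pDC had 8. Counts of called genes are therefore also given without these 2 droplets. Droplets holding more than 1 cell were not called computationally; 15 pDCs had over 2 times the median UMI number of pDCs, 2330.

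The 27 transcription factors listed comprise factors known to build pDCs and factors of neighbouring fates. Of these 24 had a UMI, 13 were higher in pDCs than in the other cells in 6 of 6 mice, and 5 (Zfp366, Batf3, Cebpb, Ebf1 and Pax5) were lower in 6 of 6. Over all 23671 genes seen in these cells, 5.33% were higher in 6 of 6 mice and 28.4% were lower. Since the rule chose the cells on this contrast, these counts are given with no test here and for each group below. A gene without a UMI in pDCs, such as Batf3 or Pax5, counts as lower wherever the other cells have any. A single UMI was worth at least 5.71 CPM in a mouse's pDCs, so a lower level of such a gene is not shown. This limit applies to the 28.4%, the marker lists above and each group below. Tcf4 had 4688 ± 571 CPM in pDCs, with a UMI in 204 of the 205, against 221 CPM in the other cells. The next highest Tcf4 level of any cell class was 563 CPM, in the Dntt+ Flt3+ progenitors.

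Runx2, which supports the release of pDCs from the marrow, had 3544 ± 256 CPM in pDCs and 213 CPM in the other cells. Irf8, required for dendritic cell development, had 2620 ± 246 CPM in pDCs and 69.0 CPM in the other cells. Mycl, a MYC-family factor of dendritic cells, was low but nearly confined to pDCs among these cells, at 62.8 ± 17.9 CPM in pDCs and 0.193 CPM in the others. These 3 factors all separated pDCs from the other cells in every mouse.

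Other regulators were shared with neighbouring lineages. Bcl11a, also a B-cell factor, had 1350 ± 142 CPM in pDCs and 357 CPM in the other cells. Spib had 134 ± 58.8 CPM in pDCs, and the B-lineage cells had 150 CPM. Factors of other fates were low: Id2, which conventional dendritic cells need, had 16.5 CPM in pDCs, Batf3 and Pax5 had 0, and Ebf1, the early B-cell factor, had 17.9 CPM in pDCs and 404 CPM in the other cells. Etv6, a repressor with a role in blood stem cells and dendritic cells, had 670 ± 247 CPM in pDCs and 1098 CPM in the other cells, and was lower in pDCs in 5 of 6 mice.

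Surface genes were mostly higher in pDCs as well, in counts from which no gene of the rule was removed. Of 38 listed, 37 were in the annotation and had a UMI, 32 were higher in pDCs in 6 of 6 mice, and none was lower in 6 of 6. Bst2, the antigen of the pDC antibody PDCA-1, had 2392 ± 456 CPM in pDCs and 92.1 CPM in the other cells. Ly6d, a marker of the lymphoid route to pDCs, had 1589 ± 493 CPM in pDCs, 33.1 CPM in the other cells and 570 CPM in the B-lineage cells. Havcr1, which encodes the phosphatidylserine receptor TIM-1, had 144 ± 30.6 CPM in pDCs and 0.0709 CPM in the other cells.

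Receptors that place pDCs in the marrow and in the growth-factor network were also present. Flt3, the receptor for the main dendritic cell growth factor, had 423 ± 113 CPM in pDCs and 166 CPM in the other cells. Both chains of the type I interferon receptor were higher in pDCs in every mouse, Ifnar1 at 253 ± 74.6 CPM and Ifnar2 at 566 ± 111 CPM, against 38.6 and 146 CPM in the other cells. Cd4 varied among mice, at 95.8 ± 56.9 CPM in pDCs, and was seen in 36 pDCs.

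Among the other listed pDC genes 19 of 29 in the annotation were higher in 6 of 6 mice. Pld4, an endolysosomal nuclease that trims TLR ligands, had 429 ± 115 CPM in pDCs and 13.9 CPM in the other cells. Cells of a monocyte gate, defined below, had 232 CPM of Pld4. Ctsl and Ctsb, lysosomal proteases, had 634 ± 142 and 1095 ± 202 CPM in pDCs, against 25.6 and 87.6 CPM in the other cells. Rnase6, a ribonuclease, had 762 ± 144 CPM in pDCs and 27.2 CPM in the other cells. Gzmb, the granzyme known from human pDCs, had 0 CPM in these mouse pDCs and 1.34 CPM in the other cells. The 0 allows a share of up to 1.46% of pDCs with a UMI. As 1 UMI was worth at least 5.71 CPM in a mouse's pDCs, it does not show a level below that of the other cells.

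The endosomal sensing pathway was in place without any interferon transcript. Of its 28 genes, 17 were higher in pDCs in 6 of 6 mice. Unc93b1, the carrier of TLR7 and TLR9, had 674 ± 55.3 CPM in pDCs and was seen in 160 of them, against 84.7 CPM in the other cells. Tlr7 had 126 ± 39.6 CPM in pDCs, from 54 cells with a UMI, and 5.47 CPM in the other cells. Tlr9 had 7 UMIs in 7 pDCs, a level of 11.0 ± 15.3 CPM that includes mice at 0, so its level was at the limit of this depth.

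Further down the pathway levels were low to moderate. Irf7, the factor that switches on the interferon genes, had 80.7 ± 46.6 CPM in pDCs and 11.4 CPM in the other cells, and Irf5, a second factor of the pathway, had 85.5 ± 49.6 and 14.5 CPM. Myd88, the adaptor, had 45.6 ± 21.6 CPM in pDCs and 20.6 CPM in the other cells. The 20 interferon genes measured, type I and type III, had 0 UMIs in all pDCs, which allows each a share of up to 1.46% of pDCs with a UMI. Of 33 interferon-response genes in the annotation 12 were higher in pDCs in 6 of 6 mice, among them Ly6e at 1302 ± 227 CPM, against 390 CPM in the other cells. Of the acute response genes, Ifit1 and Rsad2 were near the floor, with 3 UMIs each, and Isg15 had 24.

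**Figure D2:**
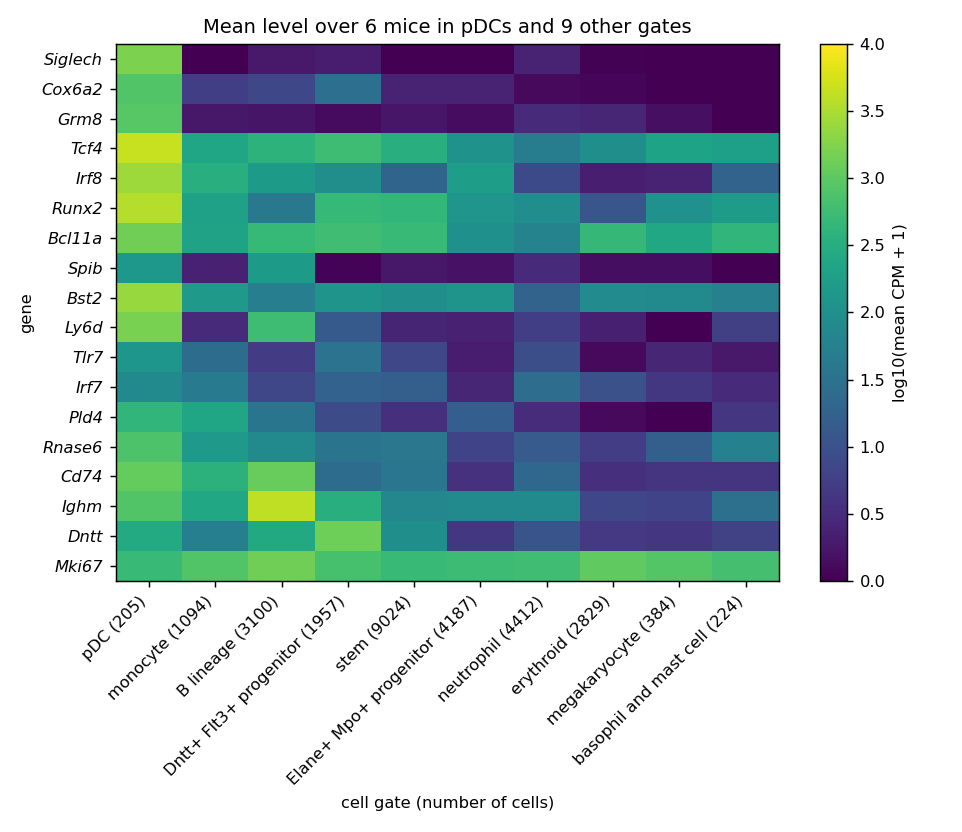
Mean levels over 6 mice, coloured as log10(mean CPM + 1), of 18 genes (rows) in pDCs and 9 other cell classes of the same marrow (columns, with their numbers of cells). Tcf4 stands at 4688 CPM in pDCs and at no more than 563 CPM in any other class shown, whereas Spib is at 134 CPM in pDCs and 150 CPM in B-lineage cells.

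The secretory pathway supports the release of large amounts of protein. Of 32 endoplasmic reticulum genes 9 were higher in pDCs in 6 of 6 mice and 4 were lower. Xbp1, the factor that expands the secretory apparatus and is needed by pDCs, had 162 ± 52.9 CPM in pDCs and 50.9 CPM in the other cells. Calr, a chaperone, was lower in pDCs, at 415 ± 105 CPM, against 833 CPM in the other cells.

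Genes of antigen presentation through MHC class II were present in some of the pDCs. Of 12 such genes 9 were higher in 6 of 6 mice. Cd74, the invariant chain that guides MHC class II molecules, had 1135 ± 728 CPM in pDCs. It was seen in 98 of the 205 pDCs. The other cells had 94.8 CPM, but the B-lineage cells among them had 1184 CPM, near the pDC level. H2-Aa and H2-Ab1, the chains of an MHC class II molecule, had 374 ± 198 and 268 ± 159 CPM in pDCs, against 27.9 and 40.1 CPM in the other cells.

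Of 20 early lymphoid genes 4 were higher in pDCs in 6 of 6 mice, Ly6d, Ighm, Il7r and Blnk, 9 were lower in 6 of 6, and 6 were at 0. Ighm, the immunoglobulin heavy chain gene, whose transcripts are known in pDCs, was seen in 168 pDCs at 814 ± 119 CPM. The other cells had 239 CPM, and the B-lineage cells had 4164 CPM, above the pDC level. Il7r, the receptor of lymphoid progenitors, had 495 ± 75.8 CPM and Blnk, a B-cell adaptor, 486 ± 96.3 CPM in pDCs, against 40.6 and 55.8 CPM in the other cells. Dntt, the enzyme that adds bases at immunoglobulin joins, was seen in 59 pDCs at 277 ± 173 CPM, and its level was 1300 CPM in the Dntt+ Flt3+ progenitors, which were chosen for it. Cd79a, of the B-cell receptor, was at 0, and Rag1 had 5 UMIs.

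Metabolic genes gave a mixed account. Of 18 cytochrome c oxidase genes 8 were lower in pDCs in 6 of 6 mice. Cox6a2 alone was higher in all 6, and since it helped to choose the cells, this describes the choice. Cox6a1, the form of the same subunit used in most tissues, had 195 ± 41.2 CPM in pDCs and 289 CPM in the other cells. Of 15 glycolysis genes in the annotation 10 were lower in 6 of 6 mice, among them Gapdh at 362 ± 81.7 CPM in pDCs and 864 CPM in the other cells. Of 19 cholesterol synthesis genes 9 were higher in 6 of 6 and none was lower, with Insig1, the sterol sensor's partner, at 81.4 ± 30.5 CPM in pDCs and 15.8 CPM in the other cells.

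For the pathway that rapamycin blocks, 32 of 34 listed genes had a UMI, 2 were higher in pDCs in 6 of 6 mice and 7 were lower. The 2 higher were Sesn3, a nutrient sensor that restrains mTOR complex 1, at 96.3 ± 36.0 CPM in pDCs and 37.3 CPM in the other cells, and Tfeb, the lysosomal factor held in check by it, at 64.0 ± 27.2 and 20.2 CPM. Mtor itself had 70.5 ± 31.1 CPM in pDCs and 42.5 CPM in the other cells. Rps6, a ribosomal protein that the pathway phosphorylates, had 1165 ± 169 CPM in pDCs and 1982 CPM in the other cells.

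When genes outside the rule with at least 50 UMIs in pDCs in all and 10 in each mouse were ranked by the median over mice of the pDC level divided by the level in the other cells, Grm8 came first. It encodes a metabotropic glutamate receptor. Its level in pDCs was 918 ± 451 CPM, from 573 UMIs in 117 pDCs, against 1.30 CPM in the other cells. Grm8 was followed by Slc41a2, a magnesium transporter, with a median ratio of 319, Pacsin1, an endocytic adaptor, with 255, Lifr, the receptor of leukaemia inhibitory factor, with 210, and Cd7, a surface molecule of lymphoid cells, with 148. Kmo and Kynu, neighbouring steps of tryptophan breakdown to kynurenine products, both stood among the first 20, with 468 ± 115 and 413 ± 139 CPM in pDCs, against 5.22 and 9.66 CPM in the other cells.

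The genes whose pattern over the 10 cell classes was most like that of Siglech were low in level. The likeness was Pearson's r of log2(CPM + 1) over 10 classes, of which 1 is the pDCs, so it mainly records absence elsewhere and carries no test. Gm10790 led at r = 0.997, followed by Foxr1 and Egfr at 0.994 each. Egfr, the epidermal growth factor receptor, had 172 ± 75.6 CPM in pDCs and 0.903 CPM in the next highest class, and Mycl, at r = 0.988, was the eighth.

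A fraction of the pDCs was dividing. A pDC was counted as dividing by its UMIs summed over 10 genes of mitosis and the late cell cycle. The genes were Mki67, Top2a, Cdk1, Ccnb1, Ccnb2, Ccna2, Birc5, Cenpf, Tpx2 and Ube2c. At least 3 such UMIs were required, which held for 31 of the 205 pDCs. By mouse these were 6 of 24 and 5 of 19 in the tamoxifen+rapamycin mice, 8 of 43 and 7 of 58 in the late rapamycin mice, and 2 of 30 and 3 of 31 in the tamoxifen mice. The means were 25.7% in tamoxifen+rapamycin mice, 15.3% in late rapamycin mice and 8.17% in tamoxifen mice. The tamoxifen+rapamycin and tamoxifen mice did not overlap, and an exact permutation test, two-sided, gave p = 0.333, the smallest that 2 mice against 2 allow.

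Depth bears on such counts, so each pDC was also thinned to 1000 UMIs, which left out no pDC. The share with at least 1 division UMI was then 33.3% and 31.6% in tamoxifen+rapamycin mice, 27.9% and 12.1% in late rapamycin mice, and 23.3% and 16.1% in tamoxifen mice. Without thinning, at least 1 such UMI was found in 9 of 24 and 6 of 19 pDCs of the tamoxifen+rapamycin mice, 15 of 43 and 8 of 58 of the late rapamycin mice, and 12 of 30 and 7 of 31 of the tamoxifen mice. The lack of overlap between tamoxifen+rapamycin and tamoxifen mice thus held at equal depth and did not hold in the unthinned share with 1 UMI.

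Genes of MHC class II presentation and Grm8 were lower in dividing pDCs. Their Cd74 level was 59.3 CPM, against 1640 CPM in the other pDCs, lower in 6 of 6 mice; 4 of the 31 dividing pDCs had a Cd74 UMI, against 94 of the 174 others. H2-Aa stood at 22.2 CPM in dividing pDCs and 525 CPM in the others, and H2-Eb1 at 0 and 276 CPM. Grm8 was seen in 4 dividing pDCs and 113 others, at 119 and 1373 CPM.

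Most identity genes shown were lower as well. Tcf4 had 2529 CPM in dividing pDCs and 5321 CPM in the other pDCs, lower in 6 of 6 mice, and Bst2 had 1053 and 2880 CPM. Siglech had 682 CPM in dividing pDCs and 1958 CPM in the others, lower in 5 of 6 mice. Irf8 had 1973 and 2838 CPM, lower in 4 of 6. The median was 4081 UMIs per dividing pDC and 2238.5 per other pDC. The threshold of 3 division UMIs was not adjusted for depth, so deeper droplets pass it more easily and part of this gap can come from the choice. Because the depths differ, the count per cell gives another view. Per cell, Tcf4 had 11.0 UMIs in dividing pDCs and 12.4 in the others, Cox6a2 2.19 and 2.07, and Irf8 8.58 and 6.61. Per cell, Bst2 had 4.58 UMIs in dividing pDCs and 6.71 in the others, Siglech 2.97 and 4.56, Rnase6 1.19 and 2.26, and Ccr9 0.548 and 1.24. Cd74 had 0.258 and 3.82 UMIs per cell, and Grm8 0.516 and 3.20.

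A few genes ran the other way. Ly6d had 2158 CPM in dividing pDCs and 1329 CPM in the others, or 9.39 and 3.10 UMIs per cell, with the CPM higher in 5 of 6 mice. Sox4, a factor of lymphoid progenitors, had 230 CPM in dividing pDCs and 111 CPM in the others, higher in 6 of 6 mice. Ptma, which encodes prothymosin alpha and is high in growing cells, had 6267 and 2052 CPM. Because the split was made on the same cells, these differences are descriptions with no test, and the part of droplets with more than 1 cell in them was not tested.

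**Figure D3:**
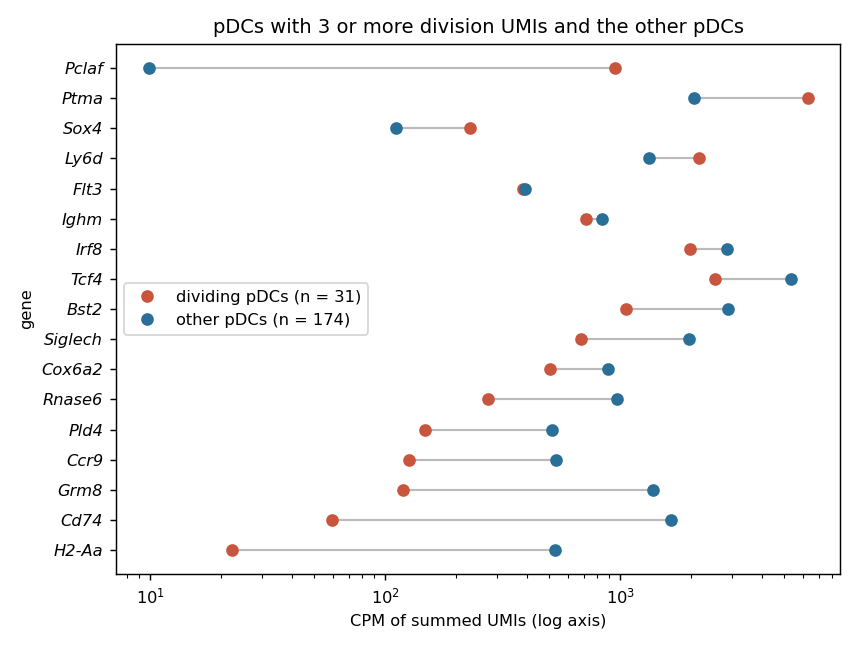
Levels (CPM over summed cells, log axis) of 17 genes in the 31 dividing pDCs (red) and the 174 other pDCs (blue). Cd74 lies at 59.3 CPM in dividing pDCs and 1640 CPM in the others, while Pclaf, Ptma, Sox4 and Ly6d are higher in the dividing ones.

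The share of pDCs among kept cells asks whether a treatment changed how many pDCs the sample held. It was 0.385% and 0.312% in the tamoxifen+rapamycin mice, 0.608% and 0.953% in the late rapamycin mice, and 0.475% and 0.523% in the tamoxifen mice. The 3 treatments did not overlap: tamoxifen+rapamycin mice were lowest and late rapamycin mice highest on both days. The means were 0.349 ± 0.0516% in tamoxifen+rapamycin mice, 0.780 ± 0.244% in late rapamycin mice and 0.499 ± 0.0342% in tamoxifen mice (SD, n = 2 each).

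Each difference stayed at the smallest p the design allows. The tamoxifen+rapamycin mean lay 0.150 percentage points below the tamoxifen mean (differences within days of -0.0894 and -0.211), the late rapamycin mean 0.282 points above it (0.134 and 0.430), and the tamoxifen+rapamycin mean 0.432 points below the late rapamycin mean (-0.223 and -0.640). An exact two-sided permutation test gave p = 0.333 for each of the 3, so none could pass 0.05. Late rapamycin mouse 2 carried most of the second difference, which was 0.109 points without it and 0.454 without mouse 1. The separation also depended on the gate. With Siglech at 2 or more UMIs and at least 2 of the 4 genes, the shares were 0.161% and 0.148% in tamoxifen+rapamycin mice, 0.212% and 0.657% in late rapamycin mice, and 0.237% and 0.439% in tamoxifen mice, so that late rapamycin and tamoxifen mice overlapped.

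Set against other cells of the same mouse, the order of the treatment means was the same, and whether the mice overlapped changed with the denominator. Per 100 cells of a monocyte gate there were 20.3 and 11.4 pDCs in tamoxifen+rapamycin mice, 16.4 and 27.9 in late rapamycin mice, and 15.2 and 21.8 in tamoxifen mice, and the treatments overlapped. Per 100 B-lineage cells there were 4.23 and 2.18 pDCs in tamoxifen+rapamycin mice, 39.4 and 11.1 in late rapamycin mice, and 7.35 and 4.98 in tamoxifen mice, with no overlap. The 39.4 rests on a small denominator. Late rapamycin mouse 1 had 109 B-lineage cells, against 408 to 872 in each other mouse. Among cells with at least 1000 genes and 2000 UMIs the shares were 0.188% and 0.393% in tamoxifen+rapamycin mice, 0.305% and 1.14% in late rapamycin mice, and 0.185% and 0.557% in tamoxifen mice, which overlapped too. The mix of sorted and whole marrow behind each share cannot be told apart from a change in pDC number.

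**Figure D4:**
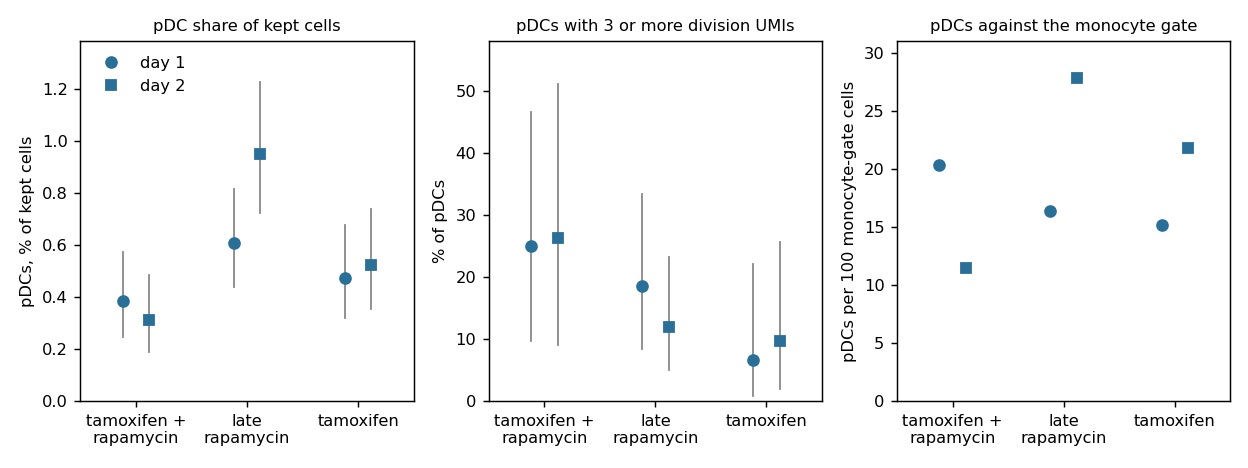
For each mouse, by treatment and processing day: pDCs as a percentage of kept cells, dividing pDCs as a percentage of pDCs, and pDCs per 100 cells of the monocyte gate; vertical lines are exact 95% binomial intervals, which cover counting error only. In the first panel the tamoxifen+rapamycin mice sit at 0.385% and 0.312%, the late rapamycin mice at 0.608% and 0.953%, and the tamoxifen mice at 0.475% and 0.523%; in the third the treatments overlap.

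Gene levels within pDCs were then compared between treatments on the UMIs summed per mouse, with edgeR's quasi-likelihood test and processing day as a term. Of 2079 genes tested between tamoxifen+rapamycin and tamoxifen mice, 7 passed an adjusted p of 0.05 (0.337% of all tested), 5 higher (0.241%) and 2 lower (0.0962%) in tamoxifen+rapamycin mice. Of the 5 that rose, 3 act in cell division or DNA replication, Top2a, Mki67 and Pclaf, and the other two are Ptma and Ly6d. The 2 that fell are Cd74 and Grm8. Among all 2079 genes tested, 756 (36.4%) had no overlap between the mice of these 2 treatments. A lack of overlap given for single genes below is therefore common and adds little to the test. The 5 that rose are higher, and the 2 that fell lower, in dividing pDCs than in the other pDCs. Top2a and Mki67 are among the 10 genes that defined a dividing pDC, so their direction was fixed by that split. The other genes share their cells with it, so this is a description and no second line of evidence.

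Top2a encodes the topoisomerase that untangles DNA before mitosis (chr11:98992943-99024189, GRCm38). Its level was 537 and 890 CPM in tamoxifen+rapamycin mice, 754 and 377 CPM in late rapamycin mice, and 202 and 163 CPM in tamoxifen mice. Both tamoxifen+rapamycin mice lay above both tamoxifen mice, with a log2 fold change of 1.98 ± 0.39 (SE; adjusted p = 0.0285, edgeR).

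Mki67, the gene of the Ki-67 antigen of dividing cells (chr7:135689784-135716361), had 748 and 791 CPM in tamoxifen+rapamycin mice, 666 and 411 CPM in late rapamycin mice, and 93.0 and 303 CPM in tamoxifen mice. The tamoxifen mice were the lowest of the 6, and the log2 fold change was 1.87 ± 0.38 (edgeR adjusted p = 0.0324). Pclaf, a PCNA-binding replication factor (chr9:65890237-65903266), had 307 and 461 CPM in tamoxifen+rapamycin mice, 274 and 246 CPM in late rapamycin mice, and 93.0 and 128 CPM in tamoxifen mice. Its groups did not overlap either, at a log2 fold change of 1.75 ± 0.39 (edgeR adjusted p = 0.0430).

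Ptma (chr1:86526726-86530712) had 4006 and 4696 CPM in tamoxifen+rapamycin mice, 3240 and 2702 CPM in late rapamycin mice, and 2589 and 2471 CPM in tamoxifen mice. The 3 treatments were fully ordered, and the log2 fold change was 0.76 ± 0.16 (edgeR adjusted p = 0.0324). Ly6d (chr15:74762056-74763620) had 2166 and 2010 CPM in tamoxifen+rapamycin mice, 1694 and 1525 CPM in late rapamycin mice, and 1349 and 793 CPM in tamoxifen mice. It showed the same order, with a log2 fold change of 0.98 ± 0.22 (edgeR adjusted p = 0.0430).

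Cd74 (chr18:60803848-60812652) had 671 and 478 CPM in tamoxifen+rapamycin mice, 617 and 1537 CPM in late rapamycin mice, and 1116 and 2390 CPM in tamoxifen mice. Both tamoxifen+rapamycin mice lay below both tamoxifen mice, and the tamoxifen mice differed from each other by over 2 times; the log2 fold change was -1.52 ± 0.30 (edgeR adjusted p = 0.0285). Grm8 (chr6:27275119-28135178) had 575 and 313 CPM in tamoxifen+rapamycin mice, 861 and 1485 CPM in late rapamycin mice, and 899 and 1376 CPM in tamoxifen mice. The tamoxifen+rapamycin mice were the lowest of the 6, with a log2 fold change of -1.36 ± 0.31 (edgeR adjusted p = 0.0453).

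**Figure D5:**
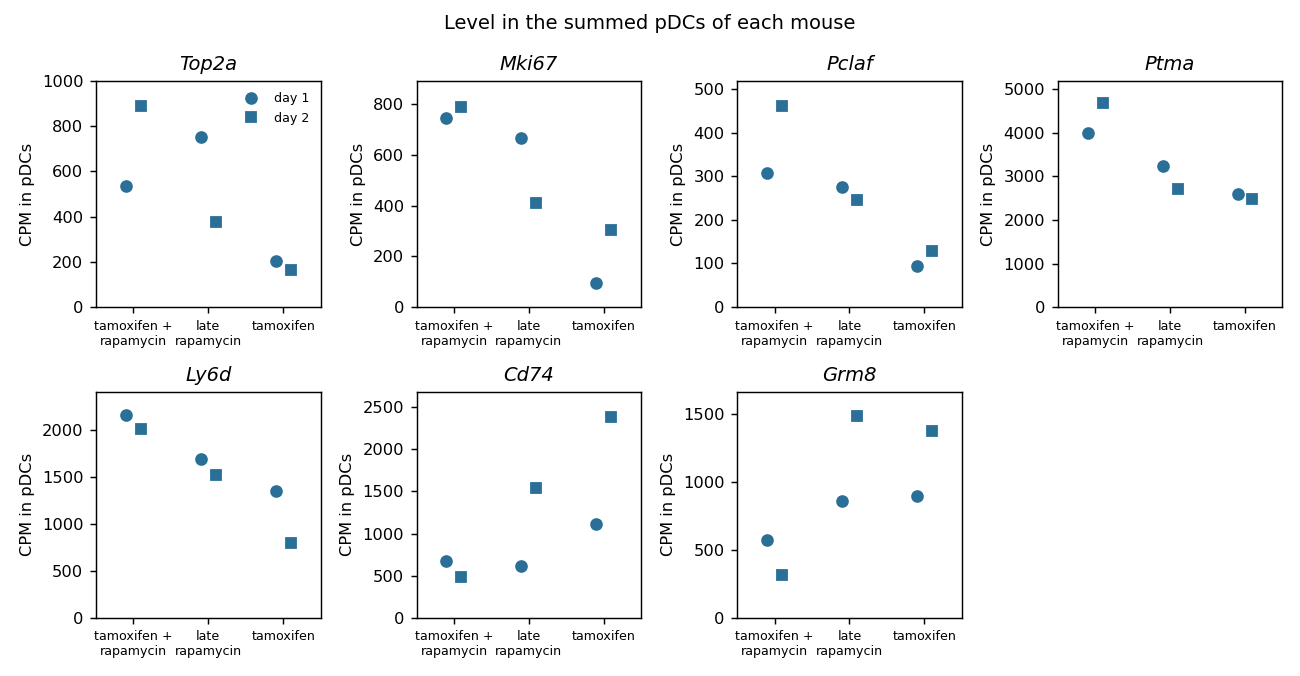
Levels (CPM over the summed pDCs of each mouse, linear axes from 0) of the 7 genes that passed the test between tamoxifen+rapamycin and tamoxifen mice, with the late rapamycin mice drawn in the middle and 1 point a mouse. Top2a lies at 537 and 890 CPM in tamoxifen+rapamycin mice and at 202 and 163 CPM in tamoxifen mice, and Cd74 at 671 and 478 CPM in tamoxifen+rapamycin mice and at 1116 and 2390 CPM in tamoxifen mice.

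These calls rested on few cells and on the model. Without the day term edgeR called none of the 7 (adjusted p of 0.116 to 0.122), and DESeq2 with it called 0 genes, with 33 genes under an unadjusted p of 0.05, against 174 by edgeR. Leaving out any 1 of the 6 mice gave 6 to 44 calls: leaving out tamoxifen+rapamycin mouse 2 kept 2 of the 7 calls (Mki67 and Ptma), leaving out tamoxifen mouse 1 kept 4 (Top2a, Ly6d, Cd74 and Grm8), and leaving out tamoxifen mouse 2 kept 1 (Mki67). The sizes moved too: without tamoxifen+rapamycin mouse 1 and without mouse 2, Cd74 was at -2.36 and -0.72, Grm8 at -2.16 and -0.65, and Top2a at 2.69 and 1.12; without tamoxifen mouse 1 and without mouse 2, Mki67 was at 1.15 and 3.18. Without the 2 droplets with neutrophil RNA, 19 genes were called, including all 7; the further calls included Bcl2, a survival gene, at a log2 fold change of 1.31, and H2-Aa and H2-Eb1 at -1.39 and -1.62. Without the dividing pDCs 4 of 1809 tested genes were called by edgeR. Ly6d at 1.07 and Cd74 at -1.20 were called again, with Bcl2 at 2.30 and Hdac9, a histone deacetylase, at 1.28. Ptma was at 0.0953 and Grm8 at -0.91 there and neither was called. Top2a, Mki67 and Pclaf were not among the genes tested there.

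By group, the division genes were the furthest from the median of all genes, -0.01 on the log2 scale. All 10 division genes tested were above 0 in tamoxifen+rapamycin over tamoxifen mice, with a median of 1.66, and 2 of them, Top2a and Mki67, passed. Cenpf, of the kinetochore, had 247 ± 23.8 CPM in tamoxifen+rapamycin mice and 25.2 ± 13.8 CPM in tamoxifen mice and did not pass (log2 3.14, edgeR adjusted p = 0.0813). All 7 tested genes of MHC class II presentation were below 0, with a median of -1.35, and Cd74 alone passed. H2-Eb1, at 114 ± 25.4 CPM in tamoxifen+rapamycin mice and 336 ± 102 CPM in tamoxifen mice, did not (edgeR adjusted p = 0.114). All 6 tested early lymphoid genes were above 0, with a median of 0.55, and Ly6d alone passed.

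Among the other groups few genes passed the test. None of 15 transcription factors passed (5 above 0, median -0.09), and 1 of 26 surface genes did, Ly6d (10 above 0, median -0.14). None of 17 other pDC genes (3 above 0, median -0.29), 12 sensing genes (4 above 0, median -0.09) or 8 interferon-response genes (2 above 0, median -0.47) passed. Bst2 had 2091 ± 165 CPM in tamoxifen+rapamycin mice and 2874 ± 8.22 CPM in tamoxifen mice (log2 -0.49, edgeR adjusted p = 0.351). None of 23 endoplasmic reticulum genes (18 above 0, median 0.26), 4 mTOR pathway genes (3 above 0, median 0.28), 4 cholesterol synthesis genes (4 above 0, median 1.04) or 14 cytochrome c oxidase genes (6 above 0, median -0.12) passed. Of the 34 mTOR pathway genes only these 4 were deep enough to test, so the pathway was mostly not measurable at this depth.

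Between late rapamycin and tamoxifen mice, 0 of the 2079 genes passed by edgeR (0%), with 115 under an unadjusted p of 0.05, and 0 passed by DESeq2, with 11. This comparison shares its tamoxifen mice with the one before. The genes with the smallest p-values were Top2a, with a log2 fold change of 1.59 ± 0.37 (edgeR adjusted p = 0.498), and Mki67, with 1.36 ± 0.38 (0.514). The division genes had a median of 1.17 with 9 of 10 above 0, and the MHC class II genes a median of -0.65 with 7 of 7 below 0, beside -0.0048 for all genes. H2-Eb1 had 146 ± 124 CPM in late rapamycin mice and 336 ± 102 CPM in tamoxifen mice. Without the 2 neutrophil-RNA droplets 4 genes passed, Auts2 at 1.77, Mki67 at 1.45, Hmgb2 at 1.38 and Top2a at 1.56; without dividing pDCs 2 did, Bcl2 at 2.03 and Vim, of the cytoskeleton, at -1.43. Leaving out 1 mouse gave 5 to 24 calls.

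Between tamoxifen+rapamycin and late rapamycin mice, which share their mice with the comparisons above, edgeR again called 0 of 2079 (0%), with 99 under an unadjusted p of 0.05, and DESeq2 called 0, with 8. Grm8 had the smallest p-value, at 444 ± 185 CPM in tamoxifen+rapamycin mice and 1173 ± 441 CPM in late rapamycin mice (log2 -1.40 ± 0.30, edgeR adjusted p = 0.176). It passed once the 2 droplets were left out (-1.46), and once the dividing pDCs were left out (-1.21). Leaving out 1 mouse gave 1 to 16 calls. Etv6 had 488 ± 14.5 CPM in tamoxifen+rapamycin mice and 957 ± 93.1 CPM in late rapamycin mice (log2 -0.997, edgeR adjusted p = 0.509). The division genes had a median of 0.60 with 10 of 10 above 0, and the MHC class II genes a median of -0.44 with 6 of 7 below 0, beside -0.01 for all genes.

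Whether an effect differed between pDCs and monocytes was tested as the difference of the 2 effects, with the mouse as a block. The monocyte gate held 1094 cells with F13a1 and another monocyte gene and no Siglech. For tamoxifen+rapamycin against tamoxifen mice, 11 of 7713 genes differed (0.143%), 5 higher in pDCs (0.0648%) and 6 lower (0.0778%). The 5 were the division genes Top2a, Mki67, Cenpa, Cenpe and Cenpf. Top2a differed by 1.91 and Mki67 by 1.815 on the log2 scale; in the monocyte gate their tamoxifen+rapamycin minus tamoxifen differences within days were -0.06 and 0.16 for Top2a and -0.16 and 0.22 for Mki67. The 6 lower were the neutrophil genes S100a8, S100a9, Camp, Ngp, Ltf and Lcn2. None of these 6 was called once the 2 droplets were left out, whereas the 5 division genes were still called. Leaving out tamoxifen mouse 2 left 2 calls, 1 of them among the 11.

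For late rapamycin against tamoxifen mice 18 genes differed between pDCs and the monocyte gate (0.233%), 9 in each direction (0.117% each), and for tamoxifen+rapamycin against late rapamycin mice 4 did (0.0519%), all lower. Top2a was among the first 18, at 1.65. The 4 include Cd74, at -1.67, the only MHC class II gene called in any of the 3. DESeq2 called 0 in each of the 3, with 139, 106 and 87 genes under an unadjusted p of 0.05, against 385, 397 and 338 by edgeR. Leaving out 1 mouse gave 5 to 44 calls in place of the 18, with 5 without tamoxifen mouse 2 and 44 without late rapamycin mouse 2, and 1 to 6 in place of the 4.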

How the data were processed

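Bone marrow cells of 6 mice were profiled with 3′ droplet sequencing and hashtag antibodies; 1 UMI stands for 1 transcript end, so levels were not divided by gene length. The deposited matrices hold UMI counts per gene and barcode, not normalized, made with Cell Ranger 8.0.1 per the file headers and 7.0.0 on mm10 per the submitters' processing notes. Whether intronic reads were counted is not given in the sources used here.

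Cells were kept with at least 500 genes, 1000 UMIs, at most 10% mitochondrial UMIs and at least 80% of hashtag UMIs on 1 tag; no doublet caller was run. The pDC rule and the gene lists were chosen with earlier results of these data known. Counts were summed per mouse and tested with edgeR 4.0.16 (quasi-likelihood, TMM, filterByExpr, Benjamini-Hochberg over all genes tested), with treatment and processing day; DESeq2 1.42.0 was an alternative. The submitters' text makes the day a batch, so mice of 1 day were treated as paired; their residual correlations over 2079 genes were -0.07, -0.09 and 0.001. The difference of effects between pDCs and the monocyte gate had the mouse as a block. Shares were compared by exact permutation, for which 2 mice against 2 allow no p under 0.333. The mice are separate animals per the labels. The tests were also run on simulated counts built on the mean levels of these data, without a day effect, and no call rests on that.

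Genes named are those called, those next by p, the 4 smallest p-values of each list, the 20 highest ratios to the other cells (at least 50 UMIs, 10 in each mouse) and the 10 most like Siglech. Amica1, Dirc2, Mx1, Mx2 and Aldoa were not matched to the annotation and are not analysed here. List genes described by level were chosen for their role. Some genes that these rules would name are not reported here. Intervals and limits cover counting error only.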

Additional observations from a re-analysis of the deposited data

Results flagged for a closer look

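Genes whose treatment effect differed between pDCs and the monocyte gate were flagged by the test of that difference (edgeR, mouse as block, adjusted p under 0.05); the values are differences of log2 fold changes, pDC minus monocyte gate. Where a group had few or no UMIs the fitted size depends on the prior count and is no bound, which holds above all for Ltf, Kif20b and Snx27.

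For tamoxifen+rapamycin against tamoxifen mice the division genes were higher in pDCs, with Top2a at 1.909, Mki67 at 1.815, Cenpf at 3.525, Cenpe at 2.746 and Cenpa at 4.694. The neutrophil genes were lower, with S100a8 at -3.338, S100a9 at -3.375, Camp at -5.274, Ngp at -6.111, Ltf at -11.04 and Lcn2 at -4.904. In tamoxifen mouse 2, a single pDC droplet carried 522 UMIs of S100a8, S100a9 and Ngp. Without it and a like droplet of late rapamycin mouse 1, the 5 division genes were still called and the 6 neutrophil genes were not.

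For late rapamycin against tamoxifen mice the higher genes were Top2a at 1.653, Cenpf at 2.84, Kif20b, a mitotic kinesin, at 8.289, Bcl2 at 1.686, Hdac9 at 1.32, Auts2 at 2.515, Atp1b1, a sodium pump subunit, at 3.368, Atp8b4 at 2.055 and Snx27 at 8.083. The lower genes were S100a8 at -3.214, S100a9 at -3.479, Camp at -5.292, Ngp at -4.943, Ltf at -4.705, Lcn2 at -3.305 and Wfdc21 at -5.053, together with Dach1 at -3.235 and Syne1 at -2.765. Without the 2 droplets 9 of the 18 were still called. S100a8, S100a9, Camp and Ngp were lower, S100a8 at -3.22, and Top2a, Kif20b, Auts2, Atp1b1 and Atp8b4 were higher. Each value is a difference of 2 effects, and whether pDCs or the monocyte gate moved was not tested. In the cells other than pDCs, the 8 neutrophil markers summed to 59363 and 22059 CPM in late rapamycin mice 1 and 2. The sums were 17514 and 20709 CPM in tamoxifen mice 1 and 2. Bcl2, Hdac9, Cenpf, Snx27, Ltf, Lcn2, Wfdc21, Dach1 and Syne1 were no longer called.

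For tamoxifen+rapamycin against late rapamycin mice the genes given here were lower, Cd74 at -1.668, Lyz2 at -3.283 and Tmcc3 at -3.634. Without the 2 droplets Cd74 was at -1.72 and still called, Lyz2 was not called, and S100a8 and S100a9 were called higher, at 2.79 and 2.82. For S100a8 and S100a9 as well, which side moved was not tested.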

How the results depend on the processing

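The counts of genes called in pDCs moved with nearly every choice, on 19 to 58 pDCs per mouse; the cause was not tested. For tamoxifen+rapamycin against tamoxifen mice (7 calls) DESeq2 gave 0, no low-count filter 27, the stricter gate 0, and no requirement of 0 UMIs of F13a1, Ms4a1 and Elane 31. The stricter gate left 624 genes to test, and Top2a, Mki67 and Pclaf were not among them. Without the replicate block, that is without the processing day, the count was 0. Without the 2 neutrophil-RNA droplets it was 19 and without dividing pDCs 4, both chosen after seeing the data. Leaving out 1 mouse at a time gave 6 to 44, the highest without tamoxifen+rapamycin mouse 1; late rapamycin mice enter through the shared spread, with 20 calls without mouse 1 and 32 without mouse 2. Ptma turned to -0.20 on the log2 scale under the stricter gate.

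For late rapamycin against tamoxifen mice (0 calls) no low-count filter gave 8, a top hashtag of at least 90% gave 2, leaving out the droplets 4, leaving out dividing pDCs 2, and leaving out 1 mouse 5 to 24. For tamoxifen+rapamycin against late rapamycin mice (0 calls) the same settings gave 8, 3, 2, 1 and 1 to 16, and no requirement of 0 UMIs gave 2. The differences from the monocyte gate (11, 18 and 4 calls) fell to 0 with DESeq2 in all 3. Leaving out 1 mouse gave 2 to 15, 5 to 44 and 1 to 6; without tamoxifen mouse 2 the first was 2 and the second 5, and without late rapamycin mouse 2 the second was 44. Without the droplets the first was 6 and the third 8. The replicate block changed no other call among the pDC comparisons. All differences in pDC share kept their sign under every setting tried; leaving out 1 mouse gave -0.187 to -0.114, 0.109 to 0.454 and -0.604 to -0.259 points, and their p could not fall below 0.333.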
